A study of Mus musculus with 12 samples.

Results

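The genes described here encode collagens, other proteins of the extracellular matrix and proteins that mark fibroblasts. They were taken from a list of 35 genes, each represented by its probeset, the group of short array probes that together give a transcript its 1 value, and each gene found had 1 probeset. Of the 35 genes, 33 were found among the 35557 probesets. *Fbn1* (fibrillin 1) was matched to no probeset and *Loxl2* only to a probeset that also names another gene, so both are not analysed here. Total RNA of 12 mouse hearts was hybridised to Affymetrix mouse Gene 1.0 ST arrays, with 1 array for each 8-week-old mouse and no pressure overload named in the labels. The groups were 2 mice with wild-type *Gata4* and *Gata6* that carry the cre transgene alone (cre), 2 mice with floxed *Gata4* and no cre (*Gata4* floxed), 3 mice with floxed *Gata4* and cre (*Gata4*-deleted), 2 mice with floxed *Gata6* and no cre (*Gata6* floxed) and 3 mice with floxed *Gata6* and cre (*Gata6*-deleted). The cre transgene is driven by a myosin heavy chain promoter, which is active in cardiomyocytes. The labels name the alpha-MHC promoter and the study's methods the beta-MHC promoter, and strain and sex are not given in the sources used here.

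The extracellular matrix of the heart is a mesh in which cardiomyocytes, vessels and fibroblasts are embedded. Fibrillar collagens give it tensile strength, basement membrane collagens surround myocytes and vessels, and elastic fibres and proteoglycans fill and space the mesh. Lysyl oxidases cross-link collagen and elastin after secretion. Cardiac fibroblasts make most of the fibrillar matrix, whereas endothelial and mural cells also make basement membrane, and matrix genes are known to rise in hearts under load. GATA-4 and GATA-6 are zinc finger transcription factors that bind the DNA motif GATA with an A or T before it and an A or G after it.

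All values are log2 signals (RMA), and array medians lay between 5.61 and 5.66. Genes of cardiomyocytes (*Myh6*, *Tnnt2* and 5 others) had a mean signal of 12.6 to 12.8 in every heart, and the 9 fibroblast markers, all of them among the genes described here, a mean of 8.66 to 9.15, with none of the 9 below the array median. The probesets of the targeted genes did not separate deleted from floxed hearts. *Gata4* read 9.15 to 9.25 in *Gata4*-deleted and 9.23 and 9.26 in *Gata4* floxed hearts, and *Gata6* read 8.98 to 9.21 in *Gata6*-deleted and 8.69 and 9.09 in *Gata6* floxed hearts. These probesets combine several probes, and which exons those probes cover was not known here. Whether they register loss of a floxed exon, and why the signals did not separate, was not tested. The study's own qRT-PCR signal of *Gata4* did fall once that gene was deleted. All probesets entered a limma model of the 5 group means, and a gene is said to pass where its p, adjusted over the 35557 probesets by the method of Benjamini and Hochberg, was under 0.05. In bulk hearts, fewer fibroblasts and less of these mRNAs per fibroblast cannot be told apart.

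Promoter windows of RefSeq (GRCm38.p6, 250 bases before to 50 bases after a gene's start) were at hand for 22 of the 33 genes, in 26 windows. The GATA motif, searched on both strands as the words AGATAA with its variant AGATAG, and TGATAA with its variant TGATAG, was found in 4 of the 26 windows (15.4%) and in 29.8% of all 32851 windows. The 4 windows belong to *Col3a1*, *Fbln2*, *Tcf21* and *Ddr2*. Their 250 bases before the start are printed with the motif in capitals, where CTATCA is TGATAG read on the other strand, and that of *Col15a1*, which holds no motif, is printed beside them because *Col3a1* and *Col15a1* had 2 of the larger changes described further on. A match is a description of letters and was not tested as a binding site.
*Col3a1*, chr1:45311288-45311537, plus strand: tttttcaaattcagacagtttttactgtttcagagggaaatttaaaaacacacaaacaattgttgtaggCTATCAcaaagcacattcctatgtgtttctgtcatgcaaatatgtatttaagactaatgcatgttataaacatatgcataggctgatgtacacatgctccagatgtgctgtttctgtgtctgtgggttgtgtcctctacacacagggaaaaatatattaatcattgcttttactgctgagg
*Col15a1*, chr4:47207762-47208011, plus strand: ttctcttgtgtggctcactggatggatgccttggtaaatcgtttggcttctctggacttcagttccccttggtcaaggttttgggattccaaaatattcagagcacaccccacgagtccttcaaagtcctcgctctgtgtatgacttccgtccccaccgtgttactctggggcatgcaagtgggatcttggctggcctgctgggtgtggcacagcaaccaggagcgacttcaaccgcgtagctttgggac
*Tcf21*, chr10:22820144-22820393, minus strand: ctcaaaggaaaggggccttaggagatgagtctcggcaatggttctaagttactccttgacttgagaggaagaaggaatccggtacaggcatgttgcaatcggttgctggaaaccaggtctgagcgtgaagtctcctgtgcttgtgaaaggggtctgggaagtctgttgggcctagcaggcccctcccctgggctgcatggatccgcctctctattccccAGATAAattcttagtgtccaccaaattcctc
*Ddr2*, chr1:170088945-170089194, minus strand: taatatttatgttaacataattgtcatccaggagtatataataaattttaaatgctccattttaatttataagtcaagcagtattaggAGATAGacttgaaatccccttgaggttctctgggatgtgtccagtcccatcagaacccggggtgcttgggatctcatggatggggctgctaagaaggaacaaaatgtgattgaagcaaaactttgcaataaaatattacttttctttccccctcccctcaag
*Fbln2*, chr6:91212514-91212763, plus strand: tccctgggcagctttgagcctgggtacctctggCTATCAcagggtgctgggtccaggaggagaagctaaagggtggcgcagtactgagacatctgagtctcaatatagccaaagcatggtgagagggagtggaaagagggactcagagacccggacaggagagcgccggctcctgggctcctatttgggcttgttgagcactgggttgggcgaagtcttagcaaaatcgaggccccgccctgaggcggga
Of the 33 genes, 4 pairs lie next to each other in that annotation, namely *Col3a1* with *Col5a2*, *Col6a1* with *Col6a2*, *Dcn* with *Lum* and *Col4a1* with *Col4a2*.

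The signals of the matrix genes varied together from heart to heart, and they did so within genotype groups as well as between them. A module score was computed for each heart as the mean over the 33 genes of the log2 signal minus that gene's mean over the 12 hearts. It was -0.21 and -0.02 in the cre hearts, 0.00 and 0.29 in the *Gata4* floxed hearts, -0.09, -0.02 and -0.05 in the *Gata4*-deleted hearts, 0.03 and -0.18 in the *Gata6* floxed hearts and 0.21, 0.00 and 0.05 in the *Gata6*-deleted hearts. *Gata4* floxed heart 2 stood highest and cre heart 1 lowest, and each had a group mate near the middle of the range. *Gata4* floxed heart 2 held the highest of the 12 values for 15 of the 33 genes and lay above the 12-heart mean for 32 of them, *Gata6*-deleted heart 1 held the highest value for 10 genes, cre heart 1 held the lowest for 12 genes, and *Gata6* floxed heart 2 held the lowest for 11 genes and lay above the mean for none.

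**Figure D1:**
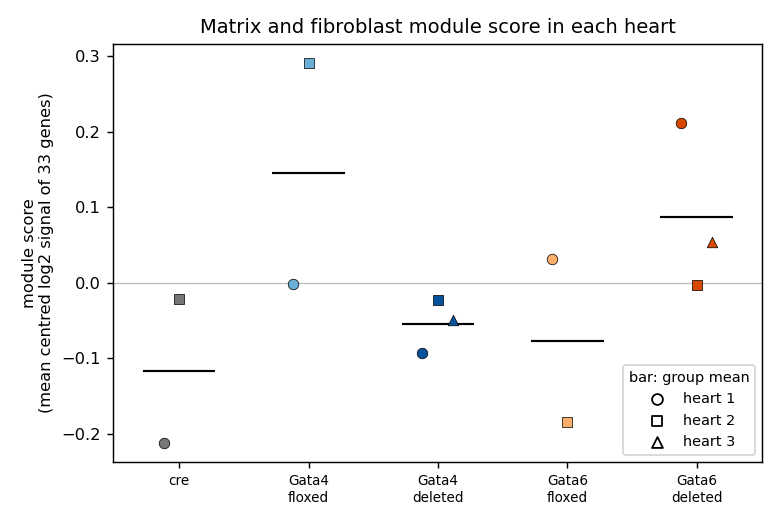
Module score (mean centred log2 signal of 33 matrix and fibroblast genes, y axis) in each of the 12 hearts, by genotype group (x axis), with a bar at the group mean. The 2 floxed groups and the cre group each span 0.19 to 0.29, and the 3 *Gata4*-deleted hearts lie within 0.07 of each other.

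The group means of the score were -0.12 ± 0.13 (SD, n = 2) in cre, 0.14 ± 0.21 (SD, n = 2) in *Gata4* floxed, -0.06 ± 0.04 (SD, n = 3) in *Gata4*-deleted, -0.08 ± 0.15 (SD, n = 2) in *Gata6* floxed and 0.09 ± 0.11 (SD, n = 3) in *Gata6*-deleted hearts, with a pooled SD within groups of 0.13. The mean score of *Gata4*-deleted hearts minus that of their floxed hearts was -0.20, and the same difference in the *Gata6* line was 0.16. These are descriptions with no test. Without *Gata4* floxed heart 2 the first difference was -0.05, and without *Gata6* floxed heart 2 the second was 0.06.

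Pairs of hearts of the same genotype were also compared gene by gene. In each pair, genes were counted as higher in the heart with the higher module score. That score comes from the same 33 genes, so a majority of them was favoured there in advance. The share of all probesets was counted in the same heart but was not favoured in that way, so it is not a matched background. Between the 2 *Gata4* floxed hearts, 30 of the 33 genes were higher in heart 2, by a median of 0.30 on the log2 scale and by 0.90 for *Postn*, whereas 50.9% of all probesets were higher there. Between the 2 cre hearts, 29 of 33 genes were higher in heart 2 (median 0.23, with 0.55 for *Col15a1*), against 53.8% of all probesets. Between the 2 *Gata6* floxed hearts, 31 of 33 were higher in heart 1 (median 0.19), against 51.2% of all probesets. Of the *Gata6*-deleted hearts, heart 1 was higher than hearts 2 and 3 for 27 and 29 of 33 genes (medians 0.23 and 0.17), against 50.3% and 51.1% of all probesets, and heart 3 was higher than heart 2 for 22 (median 0.07), against 49.2%. The 3 *Gata4*-deleted hearts were alike, with 19 of 33 genes in each pair higher in the heart with the higher score and medians of 0.01 to 0.03. The SD left within groups had a median of 0.168 over the 33 genes, from 0.0485 for *Fbln1* to 0.310 for *Postn*, against 0.136 over all probesets and 0.110 over the probesets brighter than the median.

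**Figure D2:**
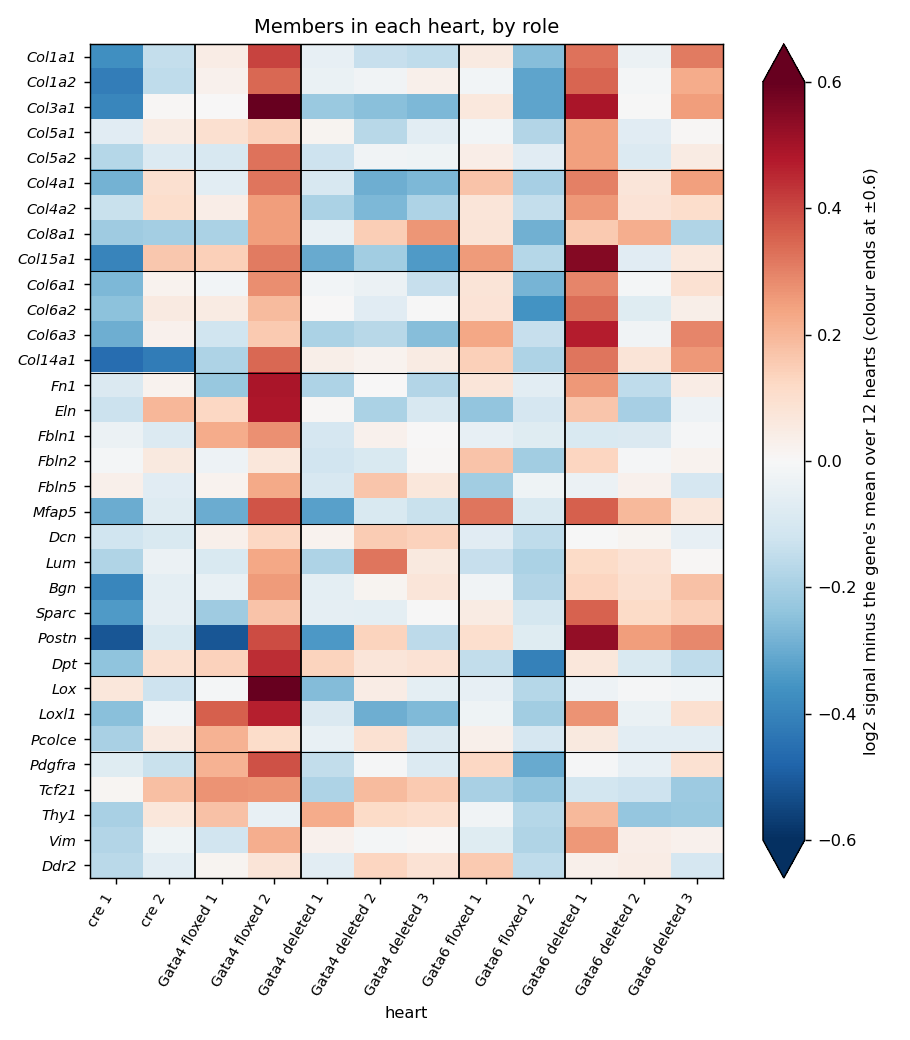
Log2 signal of each of the 33 genes minus its own mean over the 12 hearts (colour, with the scale ending at ±0.6), with genes in rows grouped by role and hearts in columns grouped by genotype. The columns of *Gata4* floxed heart 2 and *Gata6*-deleted heart 1 are mostly red, and those of cre heart 1 and *Gata6* floxed heart 2 mostly blue.

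Each gene was set against the score of the other 32 over the 12 hearts, which share 1 array normalization. Pearson's r had a median of 0.75 over the 33 genes and ran from 0.19 for *Thy1* to 0.95 for *Col6a1*, a beaded-filament collagen, and it was over 0.5 for 28 genes. Without *Gata4* floxed heart 2 and *Gata6*-deleted heart 1, the 2 hearts farthest from the median score, the median was 0.57 and 21 genes were over 0.5. *Fbln5* was then lowest, at -0.27, with *Eln* at 0.03, *Tcf21* at 0.04, *Thy1* at 0.10, *Lox* at 0.14 and *Fn1* at 0.25. With the group means removed from every value the median r was 0.84. The collagens *Col3a1* (0.95), *Col1a2* (0.92) and *Col1a1* (0.91) followed the others closely, and *Fbln5* (0.24), *Tcf21* (0.21) and *Thy1* least. The share of genes outside the 33 with an r over 0.5 to the score was not counted, so the 28 genes have no background share.

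No gene of the 33 passed in *Gata4*-deleted against *Gata4* floxed hearts, and 29 of the 33 log2 changes were below 0. Over all probesets 65 passed (0.183%). By limma at an unadjusted p under 0.05, 8 of the 33 genes were lower and none higher, where 9.42% of all probesets had such a p in either direction, and the methods' t-test gave 5 genes unadjusted (8.07% of all probesets) and 0 after adjustment. The median log2 change of the 33 genes was -0.19, against 0.00 over all probesets, whose quartiles were -0.10 and 0.11. All 3 deleted hearts lay below both floxed hearts for 15 of the 33 genes and above them for none, where 13% of all probesets were lower and 12.7% higher in that way. Without *Gata4* floxed heart 2, 20 of the 33 changes were below 0 and the median was -0.04. The 95% interval of a change had a median half-width of 0.32 on the log2 scale.

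In *Gata6*-deleted against *Gata6* floxed hearts the changes of 31 of the 33 genes were above 0 and no gene passed. No probeset of the whole array passed either (0%). At an unadjusted p under 0.05, only *Col1a2* was higher and none was lower, where 4.91% of all probesets had such a p, and the methods' t-test gave 2 genes unadjusted (4.62% of all probesets) and 0 after adjustment. The median log2 change was 0.17, against 0.00 over all probesets. All 3 deleted hearts lay above both floxed hearts for 9 of the 33 genes and below them for none, where 9.89% of all probesets were higher and 9.23% lower in that way. Without *Gata6* floxed heart 2, 23 of the 33 changes were above 0 and the median was 0.05, and without *Gata6* floxed heart 1, 32 were above 0 and the median was 0.30.

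**Figure D3:**
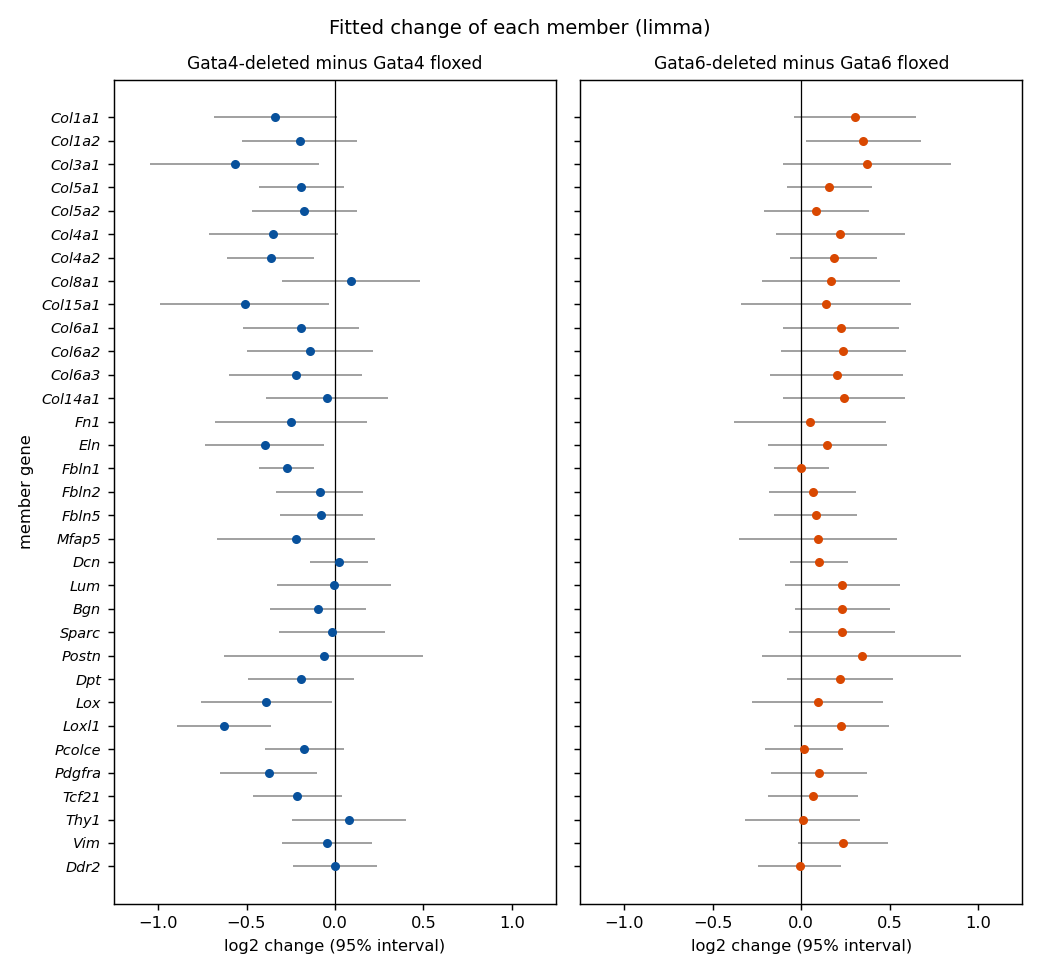
Fitted log2 change (x axis) of each of the 33 genes (y axis, by role) in *Gata4*-deleted minus *Gata4* floxed hearts (left) and *Gata6*-deleted minus *Gata6* floxed hearts (right), with 95% intervals from the limma fit. Points lie mostly left of 0 on the left and right of 0 on the right, and *Loxl1*, at -0.63, is farthest from 0.

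The fibrillar collagens, the rope-like collagens of types I, III and V, were all lower with *Gata4* deletion and all higher with *Gata6* deletion in value (5 of 5 each, medians -0.20 and 0.30), and none passed. *Col3a1*, the chain of type III collagen, read 8.99, 8.97 and 8.94 in *Gata4*-deleted hearts and 9.21 and 9.85 in *Gata4* floxed hearts. It read 9.70, 9.21 and 9.47 in *Gata6*-deleted hearts, 9.28 and 8.90 in *Gata6* floxed hearts and 8.82 and 9.22 in cre hearts. The *Gata4*-deleted hearts lay close together and below both of their floxed hearts, while the *Gata6*-deleted and *Gata6* floxed hearts overlapped. The log2 change of *Col3a1* was -0.57 (SE 0.21, 95% interval -1.04 to -0.09, limma adjusted p = 0.421) with *Gata4* deletion and 0.37 (SE 0.21, adjusted p = 0.999) with *Gata6* deletion. For *Col1a1* and *Col1a2*, the chains of type I collagen, the changes were -0.34 and -0.20 with *Gata4* deletion and 0.30 and 0.35 with *Gata6* deletion. *Col1a2* read 9.64, 9.28 and 9.51 in *Gata6*-deleted against 9.28 and 8.98 in *Gata6* floxed hearts, with no overlap (95% interval of the change 0.03 to 0.68, adjusted p = 0.999).

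**Figure D4:**
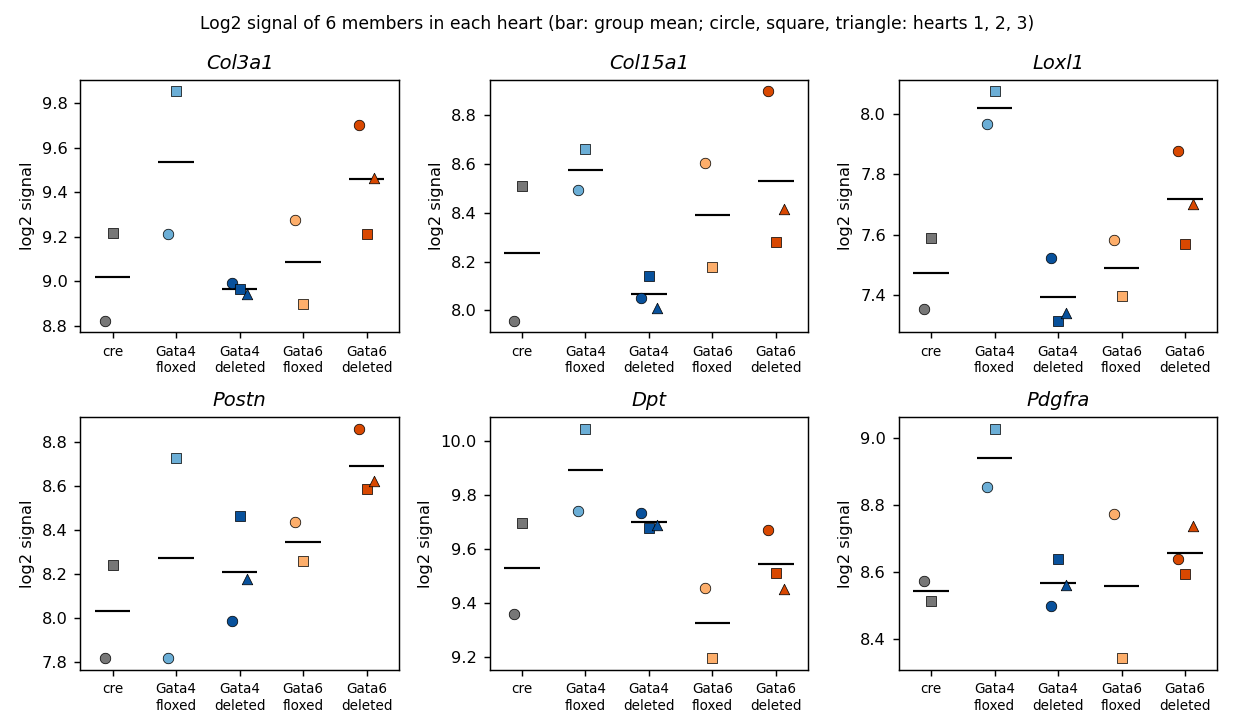
Log2 signal (y axes, each with its own range) of *Col3a1*, *Col15a1*, *Loxl1*, *Postn*, *Dpt* and *Pdgfra* in each heart by genotype group (x axes), with bars at the group means. *Loxl1* reads 7.96 and 8.07 in *Gata4* floxed hearts and at most 7.88 in every other heart.

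Among the basement membrane and network collagens, 3 of 4 were lower with *Gata4* deletion and 4 of 4 higher with *Gata6* deletion in value, and none passed. *Col15a1*, a collagen at the outer face of basement membranes that the study had picked from these same arrays, read 8.05, 8.14 and 8.01 in *Gata4*-deleted and 8.49 and 8.66 in *Gata4* floxed hearts. It read 8.90, 8.28 and 8.42 in *Gata6*-deleted, 8.60 and 8.18 in *Gata6* floxed and 7.96 and 8.51 in cre hearts. The *Gata4*-deleted values thus lay below both floxed values but within the range of the cre hearts. Its change was -0.51 (SE 0.21, adjusted p = 0.490) with *Gata4* deletion and 0.14 (SE 0.21, adjusted p = 0.999) with *Gata6* deletion. The study also measured *Col15a1* by qRT-PCR and reported it above the floxed control with either deletion. For *Gata4* deletion that direction is opposite to the array change. *Col4a1*, which with *Col4a2* forms the main basement membrane collagen, read 8.58, 8.38 and 8.41 in *Gata4*-deleted, 8.61 and 8.99 in *Gata4* floxed, 8.98, 8.75 and 8.92 in *Gata6*-deleted and 8.85 and 8.47 in *Gata6* floxed hearts. The first 2 of these groups did not overlap and the last 2 did, with changes of -0.35 (adjusted p = 0.563) and 0.22 (adjusted p = 0.999). Its neighbour *Col4a2* had changes of -0.36 (SE 0.11, adjusted p = 0.301) and 0.18 (SE 0.11, adjusted p = 0.999). *Col8a1*, a short-chain collagen of vessels, was the one of the 13 collagens among the 33 genes with a positive change with *Gata4* deletion, at 0.09.

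The collagens of types VI and XIV, which form beaded filaments and bind to fibrils, were 4 of 4 below 0 with *Gata4* deletion (-0.22 to -0.05) and 4 of 4 above 0 with *Gata6* deletion (0.20 to 0.24), and none passed. *Col6a3* read 7.14, 7.17 and 7.08 in *Gata4*-deleted and 7.21 and 7.49 in *Gata4* floxed hearts, and 7.80, 7.31 and 7.63 in *Gata6*-deleted and 7.57 and 7.20 in *Gata6* floxed hearts. The changes were -0.22 (adjusted p = 0.762) and 0.20 (adjusted p = 0.999). *Col14a1* read 7.32 and 7.36 in the cre hearts, below every other heart, where values ran from 7.59 to 8.13. It read 7.81, 7.80 and 7.83 in *Gata4*-deleted and 7.59 and 8.13 in *Gata4* floxed hearts, so the deleted hearts lay between the floxed ones, with a change of -0.05 (adjusted p = 0.963). With *Gata6* deletion its change was 0.24 (SE 0.15, adjusted p = 0.999), from 7.93 and 7.60 to 8.10, 7.86 and 8.04.

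Fibronectin, elastin and the fibulins and *Mfap5* that assemble with elastic fibres were 6 of 6 below 0 with *Gata4* deletion and 5 of 6 above 0 with *Gata6* deletion, where *Fbln1* stood at 0.00, and none passed. *Fn1*, fibronectin, had a change of -0.25 with *Gata4* deletion, whereas the study's qRT-PCR put it above the floxed control with either deletion. *Eln*, which encodes elastin, read 7.14, 6.94 and 7.04 in *Gata4*-deleted hearts against 7.26 and 7.62 in *Gata4* floxed hearts, with no overlap. It read 7.29, 6.93 and 7.10 in *Gata6*-deleted hearts against 6.89 and 7.03 in *Gata6* floxed hearts, which overlapped. The changes were -0.40 (SE 0.15, adjusted p = 0.422) and 0.15 (SE 0.15, adjusted p = 0.999). *Fbln1*, fibulin 1, had the smallest spread of the 33 genes and read 9.08 and 9.14 in *Gata4* floxed hearts, above all other 10 hearts, which ran from 8.76 to 8.89. Its change with *Gata4* deletion was -0.27 (SE 0.07, adjusted p = 0.204).

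Proteoglycans and matricellular proteins, which space collagen fibrils or act on cells without bearing load, showed medians of -0.04 with *Gata4* deletion and 0.23 with *Gata6* deletion, and none of the 6 passed. *Postn*, periostin, read 8.86, 8.58 and 8.62 in *Gata6*-deleted hearts and 8.43 and 8.26 in *Gata6* floxed hearts, and these groups did not overlap. The change was 0.34 (SE 0.25, 95% interval -0.22 to 0.90, adjusted p = 0.999). It read 7.99, 8.46 and 8.18 in *Gata4*-deleted, 7.82 and 8.72 in *Gata4* floxed and 7.82 and 8.24 in cre hearts. The 2 *Gata4* floxed hearts lay on either side of all 3 deleted hearts, and the change was -0.06 (adjusted p = 0.969). *Dpt*, dermatopontin, read 9.73, 9.68 and 9.69 in *Gata4*-deleted and 9.74 and 10.05 in *Gata4* floxed hearts, and 9.67, 9.51 and 9.45 in *Gata6*-deleted and 9.46 and 9.20 in *Gata6* floxed hearts. The first pair of groups did not overlap by a margin of less than 0.01, and the changes were -0.19 (adjusted p = 0.739) and 0.22 (adjusted p = 0.999). *Dcn*, the small proteoglycan decorin, had changes of 0.02 and 0.10 with 95% intervals of -0.14 to 0.19 and -0.06 to 0.26, among the narrowest of these genes.

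Of the enzymes and the enhancer of collagen maturation, *Loxl1*, a lysyl oxidase-like enzyme of elastic fibres, had the largest change of the 33 genes with *Gata4* deletion. It read 7.52, 7.31 and 7.34 in *Gata4*-deleted hearts and 7.96 and 8.07 in *Gata4* floxed hearts, and 7.88, 7.57 and 7.70 in *Gata6*-deleted, 7.58 and 7.40 in *Gata6* floxed and 7.35 and 7.59 in cre hearts. The *Gata4* floxed hearts lay above the other 10 hearts, and the *Gata4*-deleted hearts overlapped the cre hearts. The change was -0.63 (SE 0.12, 95% interval -0.90 to -0.36, limma adjusted p = 0.0947), a 1.54-fold lower signal, and 0.23 (SE 0.12, adjusted p = 0.999) with *Gata6* deletion. The study had picked *Loxl1* from these same arrays, so its place is not independent evidence. Its adjusted p was 0.0315 when only probesets brighter than the median were tested, where 1.37% of them passed, ran up to 0.476 over the other alternatives with the floxed control, and was 0.147 or more without any 1 heart. Against cre hearts the change of *Loxl1* with *Gata4* deletion was -0.08 (limma adjusted p = 0.869). Against the mean of all 3 control groups it was -0.27 (limma adjusted p = 0.279). *Lox*, the main lysyl oxidase and the dimmest of the 33 genes (5.15 to 6.02), had changes of -0.39 (SE 0.16, 95% interval -0.76 to -0.02) and 0.09, and *Pcolce*, which enhances removal of the procollagen end, of -0.17 and 0.01.

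The receptors, factors and markers of fibroblasts had median changes of -0.05 and 0.07, and none of the 5 passed. *Pdgfra*, the PDGF receptor that marks cardiac fibroblasts, read 8.50, 8.64 and 8.56 in *Gata4*-deleted and 8.85 and 9.03 in *Gata4* floxed hearts, with no overlap. It read 8.64, 8.59 and 8.74 in *Gata6*-deleted, 8.77 and 8.34 in *Gata6* floxed and 8.57 and 8.51 in cre hearts. The changes were -0.38 (SE 0.12, adjusted p = 0.333) and 0.10 (SE 0.12, adjusted p = 0.999). *Vim*, the intermediate filament vimentin of mesenchymal cells, read 11.30, 11.08 and 11.07 in *Gata6*-deleted against 10.97 and 10.86 in *Gata6* floxed hearts, and these groups did not overlap. The change was 0.24 (SE 0.11, adjusted p = 0.999). With *Gata4* deletion its 3 values of 11.03 to 11.07 lay between the floxed values of 10.93 and 11.26, with a change of -0.05 (adjusted p = 0.944). *Tcf21*, a transcription factor of the fibroblast lineage, had changes of -0.21 and 0.07, *Thy1*, a surface glycoprotein, of 0.08 and 0.01, and *Ddr2*, a collagen receptor, of 0.00 and -0.01.

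Whether the change with *Gata4* deletion differed from that with *Gata6* deletion was tested in the same model. The *Gata4* change minus the *Gata6* change was below 0 for 31 of the 33 genes, with a median of -0.33 against 0.00 over all probesets, and no gene passed, where 6 of all probesets did (0.0169%). At an unadjusted p under 0.05, 10 genes were lower and none higher, against 6.25% of all probesets. *Col3a1* had -0.94 (SE 0.30, adjusted p = 0.682) and *Loxl1* -0.85 (SE 0.17, adjusted p = 0.409). *Col4a2* was the one gene whose 3 deleted hearts lay below both floxed hearts in the *Gata4* line and above both in the *Gata6* line, as 1.14% of all probesets did. The median was -0.23 without *Gata4* floxed heart 2 and -0.55 without *Gata4* floxed heart 1.

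The deleted hearts were also compared directly, with 3 hearts each. *Gata4*-deleted hearts were below *Gata6*-deleted hearts for 24 of the 33 genes (median log2 difference -0.12, against 0.01 over all probesets), and no gene passed, where 384 probesets did (1.08%). At an unadjusted p under 0.05, 7 genes were lower and none higher, against 11.7% of all probesets, and the methods' t-test gave 8 genes unadjusted (10.6% of all probesets) and 0 after adjustment. All 3 *Gata4*-deleted hearts lay below all 3 *Gata6*-deleted hearts for 14 genes, 8 of them collagens, and above them for 2, *Dcn* and *Dpt*. The shares over all probesets were 9.55% and 8.58%. With quantile normalization of the deposited values, 8 genes were lower and 1 was higher in that way, against 8.65% and 10.7% of all probesets. The largest differences were -0.49 (SE 0.19, adjusted p = 0.346) for *Col3a1*, -0.48 (SE 0.22, adjusted p = 0.454) for *Postn*, -0.46 (SE 0.19, adjusted p = 0.382) for *Col15a1*, -0.45 (SE 0.15, adjusted p = 0.263) for *Col6a3* and -0.43 (SE 0.15, adjusted p = 0.275) for *Col4a1*. *Col4a2* had the smallest adjusted p, at -0.37 (SE 0.10, adjusted p = 0.148). *Thy1* (0.23) and *Tcf21* (0.21) were the highest differences in the other direction. The median was -0.07 without *Gata6*-deleted heart 1.

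Median differences among the control groups were close in size to those between deleted and floxed hearts. *Gata4* floxed hearts were above *Gata6* floxed hearts for 30 of the 33 genes (median 0.20, against 0.00 over all probesets), and no gene passed, where 81 probesets did (0.228%). At an unadjusted p under 0.05, 8 genes were higher and none lower, against 10.3% of all probesets, and by the methods' t-test 3 genes had such a p (6.45% of all probesets) and 0 had one once adjusted. *Dpt* had 0.57 (SE 0.15, adjusted p = 0.202), *Loxl1* 0.53 (SE 0.13, adjusted p = 0.179), *Tcf21* 0.48 (SE 0.12, adjusted p = 0.195), *Eln* 0.48 (SE 0.16, adjusted p = 0.346) and *Fbln1* 0.31 (SE 0.08, adjusted p = 0.178). *Tcf21* read 7.39 in both *Gata4* floxed hearts and 6.93 and 6.89 in *Gata6* floxed hearts, and 6.94 to 7.31 and 6.91 to 7.02 in the corresponding deleted hearts. Without *Gata4* floxed heart 2 the median difference between the floxed groups was 0.10. Cre hearts were below the mean of the floxed groups for 31 of the 33 genes (median -0.14, against 0.01 over all probesets), and no gene passed, where 34 probesets did (0.0956%). At an unadjusted p under 0.05, 3 genes were lower and none higher, against 8.33% of all probesets, and *Col14a1* had the largest difference, at -0.47 (SE 0.15, adjusted p = 0.410). Without cre heart 1 the median was -0.05.

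When cre hearts, which carry the transgene as the deleted hearts do, took the place of the floxed line as the control, the median with *Gata4* deletion lay above 0. The changes of 21 of the 33 genes were then above 0, with a median of 0.06, and *Col14a1* had 0.47 (adjusted p = 0.292). With *Gata6* deletion 28 of the 33 changes stayed above 0 in value, with a median of 0.20, and the largest were 0.66 for *Postn* (adjusted p = 0.387) and 0.66 for *Col14a1* (adjusted p = 0.144). No gene of the 33 passed with either deletion, where 139 of all 35557 probesets did with *Gata4* and 183 with *Gata6* deletion. Against the mean of all 3 control groups the medians were -0.03 with *Gata4* and 0.12 with *Gata6* deletion. None of the 33 genes passed there, where 295 and 142 of all probesets did.

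Other genes of the matrix were counted from lists that hold none of the 33 genes. Of 21 genes that fold and process collagen, none passed with either deletion, with medians of 0.02 with *Gata4* and 0.06 with *Gata6* deletion. In the direct comparison *Adamts3*, a protease that trims procollagen, was lower in *Gata4*-deleted hearts (difference -0.44, SE 0.09, adjusted p = 0.0491), and the other 20 did not pass. None passed in any of these 3 comparisons among 11 laminins and other basement membrane genes (medians -0.07 with *Gata4* and 0.11 with *Gata6* deletion), 18 other collagens (0.06 and 0.07), 8 other proteoglycans (0.03 and 0.13), 10 partners of elastic fibres (-0.12 and 0.07), 12 matrix receptors (0.06 and 0.10) and 11 myofibroblast genes (0.00 and 0.20). In the laminin list, as in the collagens, *Gata4* floxed heart 2 and *Gata6*-deleted heart 1 held the 2 highest mean signals, 8.93 and 8.85, and *Gata6* floxed heart 2 and cre heart 1 the 2 lowest, 8.62 and 8.67. The other lists differed. A *Gata4*-deleted heart was highest for collagen folding (7.72), other collagens (6.20), other proteoglycans (7.20) and matrix receptors (7.43). *Gata4* floxed heart 2 was highest for elastic fibre partners (7.13) and *Gata6*-deleted heart 1 for myofibroblast genes (6.74).

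Markers of other cells in the same hearts were measured beside these genes. The mean signal of 8 endothelial markers was highest in *Gata6*-deleted heart 1 (9.06) and *Gata4* floxed heart 2 (9.04) and lowest in cre heart 1 (8.75), the hearts at the ends of the matrix score. Its ranges were 8.75 to 8.90 in cre, 8.91 to 9.04 in *Gata4* floxed, 8.84 to 8.89 in *Gata4*-deleted, 8.84 to 8.92 in *Gata6* floxed and 8.86 to 9.06 in *Gata6*-deleted hearts. The mean of 9 macrophage markers was 7.58 to 7.63 in *Gata4*-deleted hearts, below every other heart, and 8.04 to 8.22 in *Gata4* floxed, 7.78 to 7.98 in cre, 7.85 to 8.15 in *Gata6* floxed and 7.93 to 8.01 in *Gata6*-deleted hearts. Of these 9, *Adgre1*, the F4/80 antigen, passed in the direct comparison and was lower with *Gata4* deleted (difference -0.76, SE 0.14, limma adjusted p = 0.0404). In that comparison 1.08% of all probesets passed. The study had picked *Adgre1*, under the name *Emr1*, and *Ptprc* of the same list from these same arrays, so this pass is not independent evidence. Against *Gata4* floxed hearts none of the 9 passed with *Gata4* deletion. The mean of 8 smooth muscle and pericyte markers ran from 8.66 to 8.85 over the 6 control hearts, from 8.81 to 9.07 in *Gata4*-deleted and from 8.78 to 9.14 in *Gata6*-deleted hearts. Against the floxed hearts, however, 5 of these 8 markers were below 0 and 3 above with *Gata4* deletion (median change -0.09). With *Gata6* deletion 6 were above 0 and 2 below (median 0.27), and none of the 8 passed. Of 5 epicardial markers, 3 lay below the array median, so little epicardial signal was seen. *Alas2*, the one red blood cell marker found, read 8.59 in *Gata4* floxed heart 2 and 6.62 to 7.39 in the other 11 hearts, and was chosen after its values were seen. The part of these cells in the matrix score was not tested.

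**Figure D5:**
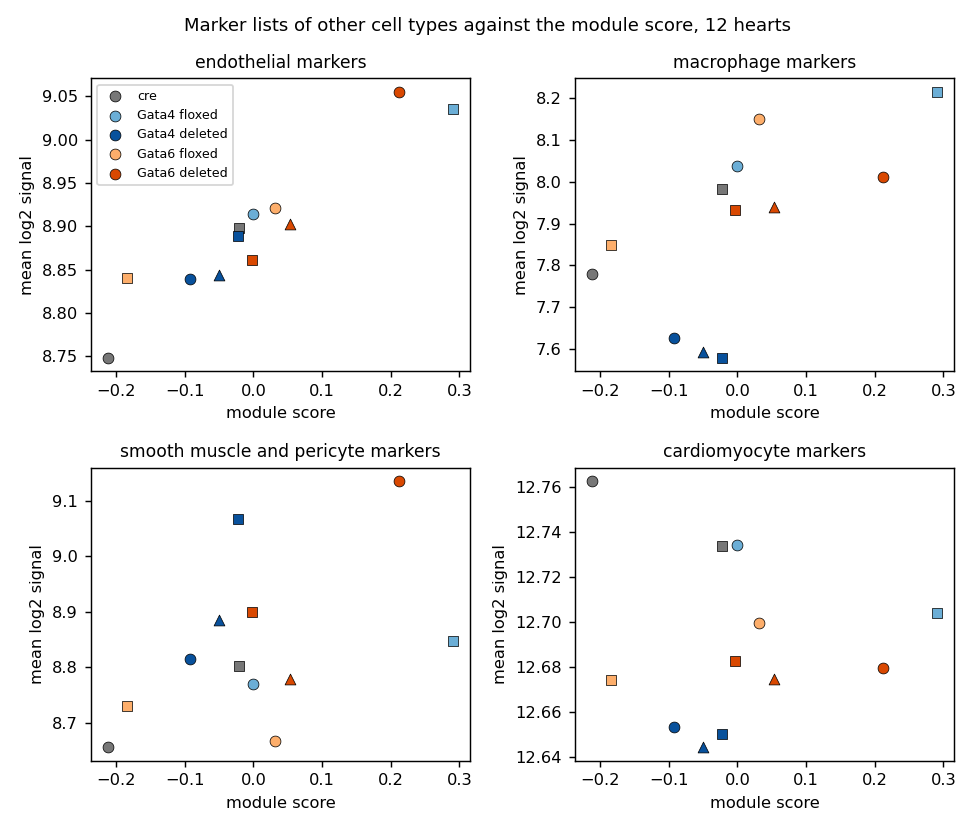
Mean log2 signal of endothelial, macrophage, smooth muscle and pericyte, and cardiomyocyte markers (y axes, each with its own range) against the matrix module score (x axes) in the 12 hearts, coloured by genotype group, with circle, square and triangle for hearts 1, 2 and 3. The endothelial mean is lowest in the heart with the lowest score and highest in the 2 hearts with the highest scores, and the *Gata4*-deleted hearts are lowest in the macrophage panel.

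Among 19905 other named genes, those most like the module score over the 12 hearts were *Gnai2* (r = 0.94), an inhibitory G protein subunit, *Fstl1* (r = 0.94), a secreted follistatin-like glycoprotein, *Vangl1* (r = 0.91), a planar polarity protein, *Cald1* (r = 0.91), the actin-binding caldesmon, and *P4hb* (r = 0.90), a subunit of the enzyme that hydroxylates collagen prolines. They were chosen for their r, so no p is given, and the score and each gene come from the same arrays. Spearman's rho was 0.83, 0.83, 0.80, 0.83 and 0.87 in that order, and without the 2 hearts farthest from the median score, *Gata4* floxed heart 2 and *Gata6*-deleted heart 1, Pearson's r was 0.87, 0.78, 0.79, 0.79 and 0.88. *Fstl1* had a direct difference of -0.26 (SE 0.17, adjusted p = 0.628) between *Gata4*-deleted and *Gata6*-deleted hearts.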

How the data were processed

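Each of the 12 hearts was read on 1 array. The authors deposited log2 RMA values, background-corrected and normalized together before each probeset was summarised (version not given in the sources used here). Of a second deposited table, the 12 columns of values relative to a baseline match no label and were not used. Replicates are labelled as biological. The genes, lists and tests were chosen with earlier results of these data known.

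Probesets were named from the platform's probe table, which gave 1 symbol to 21789 probesets and several to 1621. A group-means model with 7 residual degrees of freedom was fitted to all 35557 probesets with limma 3.58.1 in R 4.3.3, two-sided, and p was adjusted over all probesets. Every analysed gene had 1 probeset. Per-heart values are given for genes that passed (none did) and, in each role group, for the largest change with each deletion, and for others chosen after their values were seen. Comparisons that leave a group with 1 heart assume that it varies like the other groups. For 3 hearts against 2 or 3, the smallest exact p is 0.2 or 0.1. The script was tested on simulated data. Replicate numbers were not taken to pair hearts. Alternatives were other normalizations, a filter, priors, controls (chosen after seeing the data), the replicate block, the t-test of the methods and omission of each heart.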

Additional observations from a re-analysis of the deposited data

Results flagged for a closer look

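*Col4a2*, a chain of the main basement membrane collagen, was picked out because all 3 *Gata4*-deleted hearts lay below both *Gata4* floxed hearts and all 3 *Gata6*-deleted hearts lay above both *Gata6* floxed hearts. Its *Gata4* change minus its *Gata6* change was -0.55 on the log2 scale (SE 0.16), and limma's test of that difference did not pass (adjusted p = 0.647). No other gene of the 33 met this description, which 407 of all 35557 probesets (1.14%) did. The rule that flagged the gene took opposite non-overlap in either direction, which 749 of all probesets (2.11%) met.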

How the results depend on the processing

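Of 671 recomputed values of the 11 genes with values in every heart, 649 kept their direction and side of the threshold, 21 changed sign, 12 of them with another control and the rest without 1 heart, and 1 passed, *Loxl1* with *Gata4* deletion when only probesets brighter than the median were tested, which leaves fewer tests (adjusted p = 0.0315, 1 of the 32 genes left, where 243 of 17778 probesets, 1.37%, passed). With cre hearts as the control, chosen after seeing the data, the median with *Gata4* deletion was 0.062 and the score 0.062, with *Col14a1* at 0.47, *Dpt* at 0.17, *Postn* at 0.18, *Pdgfra* at 0.023 and *Vim* at 0.10, and *Eln* with *Gata6* deletion was -0.057. With the mean of all 3 control groups, the *Gata4* median was -0.032 and the score -0.039, with *Col14a1* at 0.16, *Dpt* at 0.12 and *Vim* at 0.064, and with *Gata6* deletion *Eln* was -0.080, *Dpt* -0.037 and *Pdgfra* -0.024. In the direct comparison, genes with no overlap were 1 higher and 8 lower after quantile normalization (10.7% and 8.65% of all probesets) and 1 higher after median centring (9.02%).

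Without 1 heart at a time, no gene passed in any comparison. The median with *Gata4* deletion ran from -0.34 (without *Gata4* floxed heart 1) to -0.039 (without heart 2) and the score from -0.35 to -0.054, with *Col14a1* from -0.31 to 0.22, *Postn* from -0.52 to 0.39 and *Vim* from -0.21 to 0.12. With *Gata6* deletion the median ran from 0.048 (without *Gata6* floxed heart 2) to 0.30 (without heart 1) and the score from 0.06 to 0.27, with *Col15a1* from -0.072 to 0.35 and *Pdgfra* from -0.12 to 0.31. For the *Gata4* minus the *Gata6* change the median ran from -0.55 to -0.23, the score from -0.51 to -0.22 and *Postn* from -0.86 to 0.047. Between the floxed lines the median ran from 0.10 to 0.35 and the score from 0.075 to 0.37. For cre against floxed hearts the median ran from -0.24 to -0.05 and the score from -0.25 to -0.06. In the direct comparison the median ran from -0.20 to -0.07, the score from -0.19 to -0.08 and *Eln* from -0.16 to 0.025. Genes with no overlap ran from 0 to 6 higher (17.4% to 27.2% of all probesets) and 15 to 28 lower (18% to 26.6%) with *Gata4* deletion, from 9 to 27 higher (15.9% to 27.8%) and 0 to 3 lower (15.2% to 26%) with *Gata6* deletion, and from 2 to 6 higher (12.4% to 15.8%) and 14 to 20 lower (13.4% to 16.3%) in the direct comparison. The 15 lower genes without *Gata4* floxed heart 2 stood against 26.1%, the 28 without *Gata4* floxed heart 1 against 26.6% and the 27 higher genes without *Gata6* floxed heart 1 against 27.8%. The cause of the other moves was not tested.

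With the replicate number as a block, 0 genes passed and the medians were -0.18 with *Gata4* and 0.19 with *Gata6* deletion. Over 21 pairs of hearts with the same number, r of their deviations was -0.10 to 0.11 and over 0.1 in 1, so the numbers were not taken to pair hearts. The number of arrays limits the precision.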
